A study of Mus musculus with 686 samples.

Results

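Spleens of mice that flew on the International Space Station and were returned alive were compared with spleens of ground controls. The libraries were chosen by their labels as spleen of the live animal return (LAR) experiment, which gives 21 of the 686 small RNA libraries of the series. Of these, 6 came from spaceflight (FL) mice, 6 from habitat ground control (HGC) mice and 9 from vivarium ground control (VGC) mice, and each library came from a separate animal. All mice were BALB/cAnNTac females, with 3 of 3 months and 3 of 8 months in FL, the same in HGC, and 4 of 3 months and 5 of 8 months in VGC. FL mice spent 39.5 days in orbit. HGC mice stayed on Earth in the flight hardware, at its double cage density, with the temperature, humidity and carbon dioxide recorded in flight, while VGC mice lived in ordinary vivarium cages. Mice of the 3 arms were brought to the same site and killed within a day of each other, 2 to 4 days after the splashdown of the FL mice and after functional tests under anesthesia, by blood draw from the heart and opening of the chest. The days of confined return housing were matched in HGC, while launch, landing and the likely rough seas at splashdown belonged to FL alone, so orbit and return cannot be told apart within these 21 libraries. A further 26 spleen libraries came from mice whose experiment ended on orbit, or at the matching time on Earth (TERM), and were used in 1 comparison at the end. They were 9 FL (4 of 3 months, 5 of 8 months), 9 HGC (5 and 4) and 8 VGC (4 and 4).

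The spleen filters blood in its red pulp, where aged red cells are removed and, in mice, new ones can form, and it houses lymphocytes in its white pulp. Mature microRNAs (miRNAs) guide silencing proteins to messenger RNAs through a seed of 7 bases near their 5′ end. miR-451a and the miR-144 pair are transcribed together and accumulate in red cells and their precursors, and the miR-486 family is abundant in red cells and in striated muscle. miR-150-5p marks mature lymphocytes and miR-223-3p marks myeloid cells. In bulk tissue, fewer cells of a type and less RNA per cell cannot be told apart.

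The mature sequences of the miRNAs that carry the results are given here from RefSeq (GRCm38.p6), 5′ to 3′, with the seed (bases 2 to 8) in capitals. A RefSeq entry was matched for 94 of 112 miRNAs looked up, and miR-486a-3p, miR-486a-5p, miR-486b-5p, miR-486b-3p, miR-150-5p, miR-378a-3p and miR-129-1-3p are named without a sequence. The first 5 are members of the erythroid list, the next marks myeloid cells, the next 2 (miR-214-5p and miR-877-5p) differed between arms in part of the comparisons, miR-331-5p was lower in every FL than in every VGC library without passing the test, 2 mark exocrine pancreas, and the last 3 are from the let-7 family.
miR-451a: aAACCGUUaccauuacugaguu
miR-144-3p: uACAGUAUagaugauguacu
miR-144-5p: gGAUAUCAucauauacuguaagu
miR-16-5p: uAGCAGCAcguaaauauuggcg
miR-15a-5p: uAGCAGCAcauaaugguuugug
miR-223-3p: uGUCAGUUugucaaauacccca
miR-214-5p: uGCCUGUCuacacuugcugugc
miR-877-5p: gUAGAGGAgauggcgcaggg
miR-331-5p: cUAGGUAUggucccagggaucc
miR-216a-5p: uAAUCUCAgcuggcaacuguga
miR-217-5p: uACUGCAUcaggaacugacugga
let-7a-5p: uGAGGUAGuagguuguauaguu
let-7c-5p: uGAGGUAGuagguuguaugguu
miR-98-5p: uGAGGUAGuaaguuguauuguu
miR-451a and both arms of miR-144 lie on chromosome 11, as do miR-216a and miR-217. miR-223 lies on the X chromosome, miR-214 on chromosome 1, miR-877 on chromosome 17 and miR-331 on chromosome 10. miR-16-5p, from chromosomes 3 and 14, and miR-15a-5p, from chromosome 14, share the seed AGCAGCA, and the 3 let-7 members share GAGGUAG.

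The libraries held 20400000 to 52600000 counts over 7 classes of RNA (median 35400000), counting features with identical values once, and 1850000 to 8320000 counts on miRNAs. Between 520 and 704 miRNAs had 5 counts or more in a library. The spleen label was checked by correlating 730 miRNAs of each library, centred over 13 tissues, with the median spleen profile. Pearson's r was 0.84 to 0.95 in 16 libraries, and below 0.8 in 5 of the 15 control libraries and in 0 of the 6 FL libraries. The library labelled HGC mouse 16 had r = -0.34 to spleen and r = 0.84 to brown fat, and the library labelled VGC mouse 17 had r = 0.03 to spleen and r = 0.94 to lung, so both go against their label. HGC mouse 5, VGC mouse 13 and VGC mouse 16 had r values of 0.70, 0.72 and 0.58. Results are therefore given for all 21 libraries and for the 16 libraries with r of at least 0.8 (6 FL, 4 HGC, 6 VGC), and also without 4 control libraries from library pools set aside for mixed-up tissues (HGC mouse 16 and VGC mice 5, 13 and 17). All LAR libraries left out in either way are controls, so the arms were trimmed unequally.

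**Figure D1:**
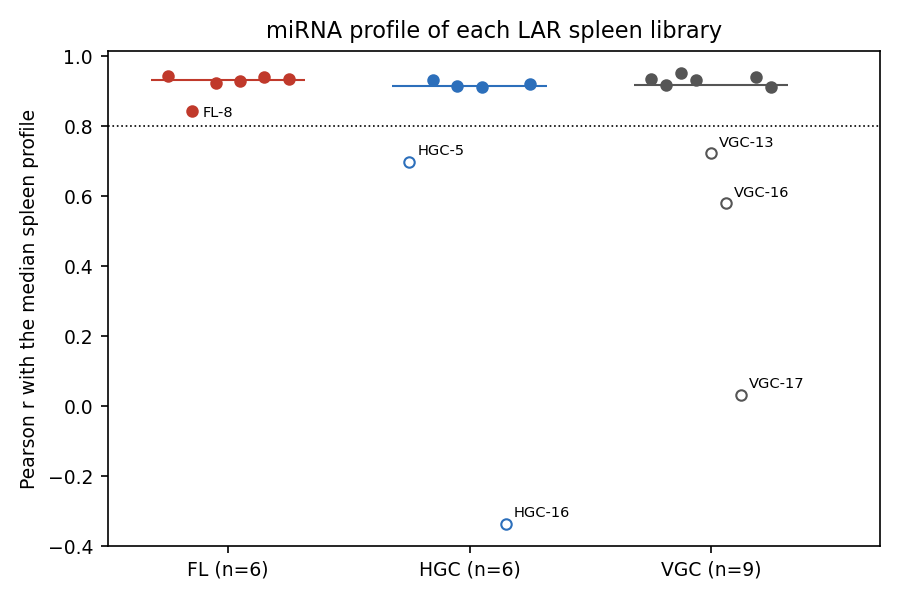
Pearson's r between the miRNA profile of each library and the median spleen profile (vertical axis, no unit) for FL, HGC and VGC; each circle is a library, open circles lie below the dotted line at 0.8, and horizontal lines are medians. All 6 FL libraries lie above the line, while HGC mouse 16 (r = -0.34) and VGC mouse 17 (r = 0.03) lie farthest below it.

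Among the 3 markers, miR-150-5p had a median over all spleen libraries of 43110 counts-per-million (CPM, relative to the miRNA counts of a library), against 10400 CPM in thymus, the tissue with the next highest level. miR-223-3p had a spleen median of 6085 CPM, against 1350 CPM in subcutaneous fat, and miR-451a one of 98430 CPM, against 76810 CPM in lung. All 3 were highest in spleen of the 13 tissues. miR-486a-3p was different: its spleen median of 81.2 CPM lay below those of diaphragm (806 CPM) and heart (598 CPM).

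By the median of each arm, small nucleolar RNAs took the largest share of counts, while in 3 libraries, HGC mouse 13 and the libraries labelled HGC mouse 16 and VGC mouse 17, miRNAs took more. The snoRNA share was 51.5 to 60.5% in FL (median 52.8%), 24.3 to 55.5% in HGC (median 48.2%) and 27.4 to 56.6% in VGC (median 50.3%). FL libraries were alike here, while the low ends of both control arms lay far below them. The share of miRNA counts was 7.43 to 12.0% in FL (median 10.9%), 7.02 to 30.4% in HGC (median 10.8%) and 6.46 to 30.5% in VGC (median 8.80%), so the control arms covered the FL range and went beyond it.

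The share of counts on long non-coding RNAs (lncRNAs) was lower in FL before correction. It was 9.46 to 14.5% in FL (median 11.4%), 12.8 to 22.3% in HGC (median 13.6%) and 9.63 to 20.4% in VGC (median 14.0%), and the ranges overlapped. The mean of 11.6% ± 1.70 (SD, n = 6) in FL was 3.42 percentage points below HGC at 15.0% ± 3.67 (SD, n = 6), with p = 0.0238 in an exact 2-sided permutation test and 0.121 after adjustment over the 7 classes. It was 3.04 points below VGC at 14.6% ± 2.97 (SD, n = 9), with an exact permutation p of 0.0328 and 0.161 after adjustment. With every listed feature counted in the totals, copies with identical values included, the gaps were -1.91 points vs. HGC and -1.63 points vs. VGC, with exact permutation p of 0.108 and 0.202. No share of the 7 classes passed the adjusted test in either comparison with copies counted once, also among the 16 libraries with r of at least 0.8. With the copies included the rRNA share passed vs. HGC, at -4.42 points (exact permutation p = 0.00649, 0.0455 after adjustment).

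**Figure D2:**
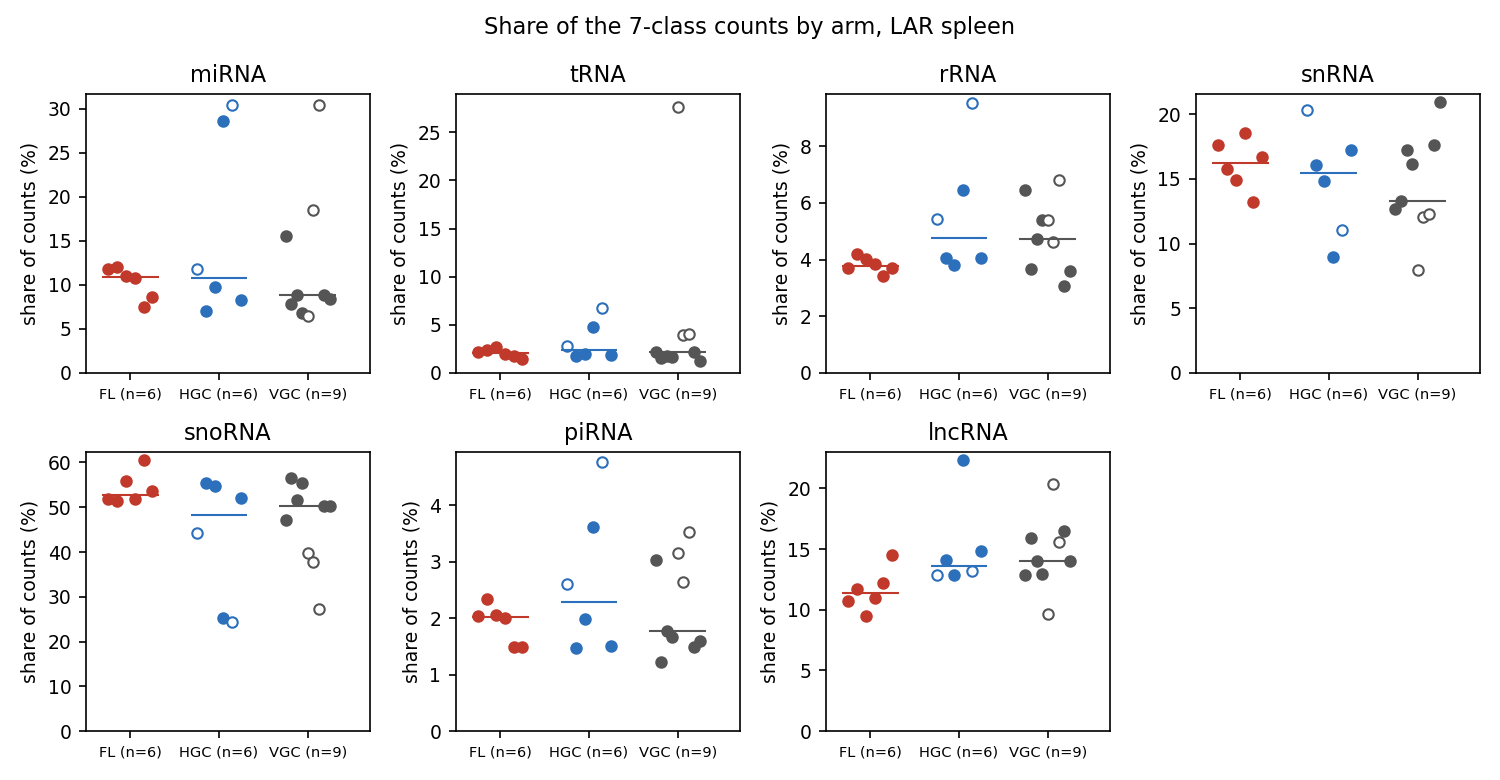
Share of the counts of a library (vertical axes, percent) that fell on each of 7 RNA classes in FL, HGC and VGC; each circle is a library, open circles have a profile r below 0.8, and horizontal lines are medians. FL libraries sit close together for miRNA (7.43 to 12.0%), while 1 HGC and 1 VGC library reach 30.4% and 30.5%, and 1 VGC library reaches 27.7% for tRNA.

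The comparisons of FL with HGC and of FL with VGC ask whether the spleen differs after flight and return, against matched housing and against ordinary housing. The 2 comparisons share the 6 FL libraries. Of 648 miRNAs tested with all libraries, 0 (0%) passed an edgeR quasi-likelihood test at an adjusted p of 0.05 in FL vs. HGC and 0 (0%) in FL vs. VGC. At an unadjusted p of 0.05, 69 (10.6%) passed in FL vs. HGC and 50 (7.72%) in FL vs. VGC, and DESeq2 called 3 and 0. The median log2 fold change over all miRNAs was -0.16 vs. HGC and -0.13 vs. VGC.

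Of 9 tested miRNAs of the erythroid list, 7 had a log2 fold change below 0 in each comparison with all libraries, and 0 passed edgeR. miR-486a-3p measured 29.2, 29.7, 33.2, 26.2, 31.4 and 34.1 CPM in FL mice 5, 8, 12, 13, 16 and 17. It measured 44.7, 87.0, 45.8, 101, 311 and 89.8 CPM in the HGC mice of the same numbers, which are different animals. It measured 66.4 to 99.7 CPM in 8 of the 9 VGC libraries and 9.82 CPM in VGC mouse 13. Every FL library was thus below every HGC library and below all VGC libraries but 1.

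In FL vs. HGC the log2 fold change of miR-486a-3p was -1.88 ± 0.46 (SE), with means of 30.6 ± 2.92 CPM (SD, n = 6) against 113 ± 99.7 CPM (SD, n = 6). It did not pass edgeR with all libraries (adjusted p = 0.184), while DESeq2 gave an adjusted p of 0.00819 for it. Among the 16 libraries with r of at least 0.8 it was -1.40 ± 0.22 (edgeR adjusted p = 0.00268), and without the listed pools -1.26 ± 0.23 (edgeR adjusted p = 0.0217). Leaving out VGC mouse 13 alone gave an edgeR adjusted p of 0.0409 in FL vs. HGC, where the arms share 1 estimate of the spread.

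In FL vs. VGC the log2 fold change of miR-486a-3p was -1.17 ± 0.43 (SE), with a VGC mean of 69.1 ± 25.0 CPM (SD, n = 9). With all libraries this did not pass (edgeR adjusted p = 0.486). It was -1.21 ± 0.20 among the libraries with r of at least 0.8 (edgeR adjusted p = 0.00588) and -1.25 ± 0.22 without the listed pools (edgeR adjusted p = 0.0153), and miR-486a-3p fell in both of these sets.

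Background counts for these sets were small. Among the libraries with r of at least 0.8, 620 miRNAs were tested, of which 3 (0.484%) passed edgeR in FL vs. HGC, 1 higher (0.161%) and 2 lower (0.323%), and 1 lower (0.161%) in FL vs. VGC, with 84 (13.5%) and 94 (15.2%) at an unadjusted p of 0.05. Without the listed pools 625 were tested, of which 1 lower (0.16%) passed in FL vs. HGC and 6 lower (0.96%) in FL vs. VGC, with 52 (8.32%) and 70 (11.2%) at an unadjusted p of 0.05. Those 6 were miR-486a-3p, miR-486a-5p, miR-486b-5p, miR-451a, miR-129-1-3p and miR-129-2-3p, so 4 of them were erythroid list members and the miR-129 pair is known from brain.

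miR-486a-5p and miR-486b-5p share their sequence closely, so reads can be split between them and they are not separate evidence. miR-486a-5p measured 28.7, 49.5, 47.5, 29.1, 32.5 and 21.6 CPM in FL mice 5, 8, 12, 13, 16 and 17. It measured 57.4, 52.5, 66.1, 92.5, 138 and 53.7 CPM in HGC, again with every FL library below every HGC library. In VGC it measured 10.4 CPM in mouse 13 and 52.2 to 132 CPM in the other 8.

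The log2 fold change of miR-486a-5p was -1.14 ± 0.41 vs. HGC (edgeR adjusted p = 0.239) and -1.12 ± 0.39 vs. VGC (edgeR adjusted p = 0.486). Without the listed pools it passed vs. VGC with -1.25 ± 0.25 (edgeR adjusted p = 0.0215), but not vs. HGC with -0.88 ± 0.26 (edgeR adjusted p = 0.199). It did not pass among those with r of at least 0.8, with -0.93 ± 0.29 vs. HGC and -1.20 ± 0.26 vs. VGC (edgeR adjusted p = 0.139 and 0.0544).

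miR-451a, the most abundant miRNA of red cells, measured 39270, 61830, 68410, 37080, 61030 and 33790 CPM in FL mice 5, 8, 12, 13, 16 and 17. It measured 77210, 123500, 57210, 99600, 52400 and 87700 CPM in HGC. In VGC it measured 3502 CPM in mouse 13 and 51050 to 140400 CPM in the other 8. The FL values lay at the lower end of both control arms, with overlap.

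The log2 fold change of miR-451a was -0.72 ± 0.48 vs. HGC (edgeR adjusted p = 0.674) and -0.76 ± 0.45 vs. VGC (edgeR adjusted p = 0.672). Without the listed pools miR-451a fell vs. VGC by 1.07 on the log2 scale (SE 0.24, edgeR adjusted p = 0.0418), while vs. HGC it was -0.82 ± 0.25 (edgeR adjusted p = 0.199). In the libraries with r of at least 0.8 it was -0.88 ± 0.27 and -1.06 ± 0.25 (edgeR adjusted p = 0.139 and 0.0695), and neither passed.

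miR-144-5p, from the hairpin next to miR-451a, ranged from 35.7 to 76.5 CPM in FL (median 56.6), from 39.2 to 202 in HGC (median 109) and from 1.64 to 189 in VGC (median 95.5). Its log2 fold change was -1.0 ± 0.59 vs. HGC and -0.69 ± 0.54 vs. VGC, and -1.19 ± 0.36 and -0.96 ± 0.33 among the libraries with r of at least 0.8. miR-144-3p gave -1.10 ± 0.66 and -0.74 ± 0.61 with all libraries. Neither arm of miR-144 passed edgeR in any of these sets.

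miR-16-5p and miR-15a-5p, which are on the erythroid list but abundant in other blood cells and in thymus, did not share the low values. miR-16-5p was 24990 to 34950 CPM in FL (median 27710), with log2 fold changes of 0.09 ± 0.26 vs. HGC and 0.13 ± 0.24 vs. VGC. miR-15a-5p gave 0.20 ± 0.25 and 0.31 ± 0.23. miR-486b-3p was 3.74 to 5.25 CPM in FL, 3.66 to 63.2 CPM in HGC (median 8.74) and 0.545 to 16.7 CPM in VGC (median 4.50), so both control ranges covered FL, with -1.83 ± 0.65 vs. HGC (edgeR adjusted p = 0.219) and -0.50 ± 0.59 vs. VGC (edgeR adjusted p = 0.900). For miR-16-5p the sign turned among the libraries with r of at least 0.8, with -0.13 and -0.06.

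With all libraries the erythroid list median was -1.10 vs. HGC and -0.74 vs. VGC. At an unadjusted p of 0.05, 4 and 3 of 9 members passed, beside 69 (10.6%) and 50 (7.72%) of 648 miRNAs. In the libraries with r of at least 0.8, 8 of 9 were below 0 in each comparison, with medians of -0.90 and -0.96 beside medians of all miRNAs of 0.03 and -0.01. There 1 of 9 passed edgeR in each comparison, beside 3 (0.484%) and 1 (0.161%) of 620 miRNAs. The 3 members with every FL library below every HGC library were miR-486a-3p, miR-486a-5p and miR-486b-5p, which were also the only 3 such miRNAs of the 648 tested (0.463%). All 3 are of the miR-486 family and are not separate evidence, and the list was chosen with earlier results of these data known. In FL vs. VGC 0 of 9 members met this with all libraries, where 1 of 648 did (0.154%), and 3 of 9 did without the listed pools, where 7 of 625 did (1.12%). The counts vs. HGC were 3 of 9 members in both subsets, beside 6 of 625 (0.96%) without the listed pools and 15 of 620 (2.42%) with r of at least 0.8, and vs. VGC 2 of 9 in the latter set beside 6 of 620 (0.968%).

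**Figure D3:**
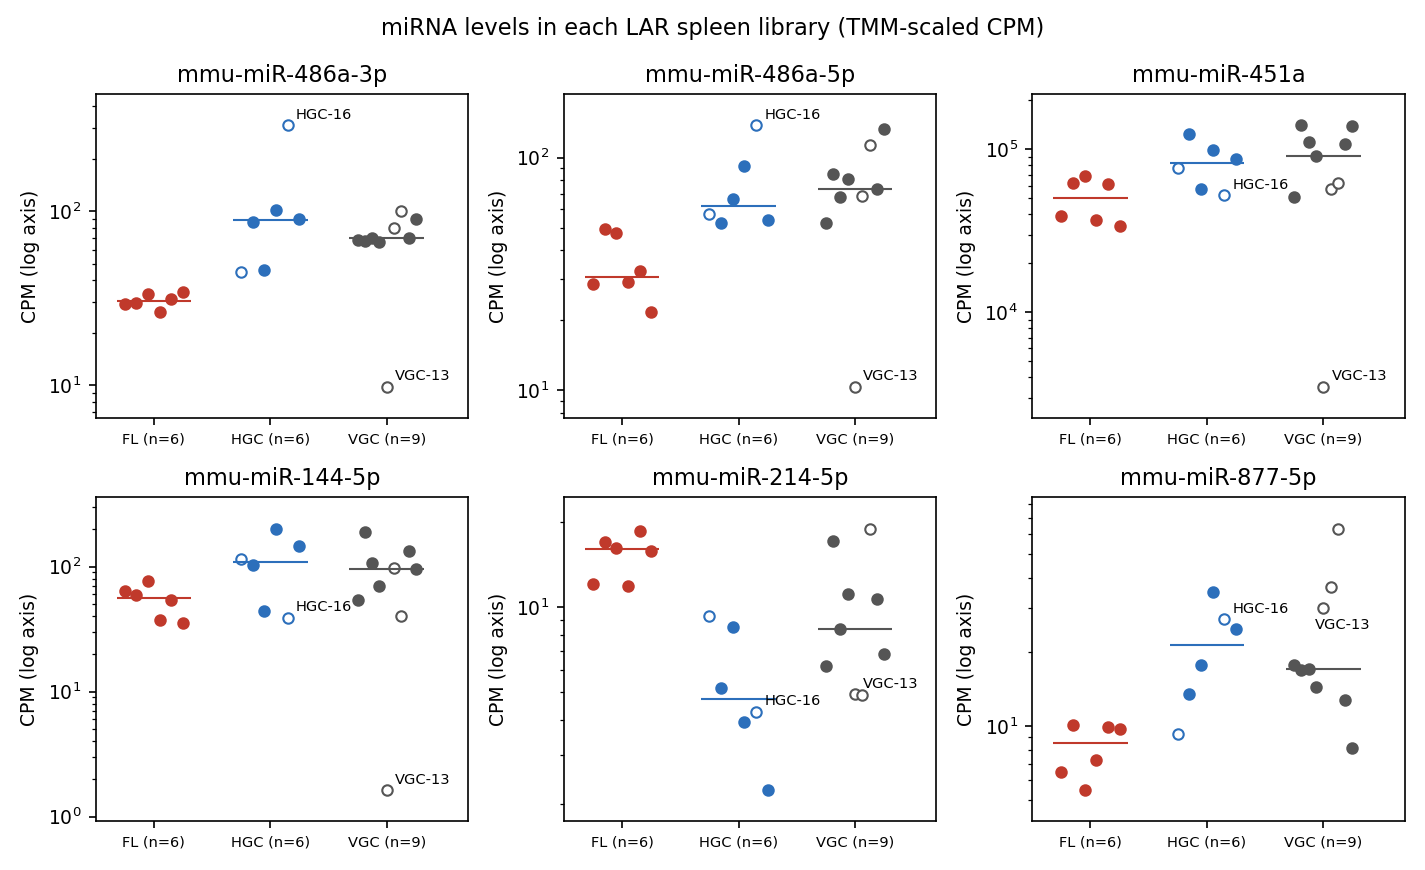
Levels of 6 miRNAs in CPM (vertical axes, log scale) in FL, HGC and VGC; each circle is a library, open circles have a profile r below 0.8, and horizontal lines are medians. The 6 FL libraries lie between 26.2 and 34.1 CPM for miR-486a-3p, below all HGC libraries, and above all HGC libraries for miR-214-5p; VGC mouse 13 is lowest for the 4 erythroid miRNAs.

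A pair of pools held an FL and a control spleen library. In the first, FL mouse 5 had 29.2 CPM of miR-486a-3p and 39270 CPM of miR-451a, and HGC mouse 13 had 101 and 99600 CPM. In the second, FL mouse 16 had 31.4 and 61030 CPM, and VGC mouse 9 had 70.3 and 110800 CPM. Both miRNAs were lower in the FL library of each pool, with no replicate.

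The miR-486 levels were also set beside the muscle list, since miR-486 is abundant in muscle. The summed muscle miRNAs were 15450 CPM in FL mouse 8, 3082 CPM in FL mouse 17 and 384 to 1862 CPM in the other FL libraries, against 184200 CPM in the library labelled HGC mouse 16, 15930 CPM in VGC mouse 16, 4963 CPM in the library labelled VGC mouse 17 and 327 to 1665 CPM in the other controls. In FL mouse 8 miR-486a-3p measured 29.7 CPM, near the other FL libraries, while in the library labelled HGC mouse 16 it measured 311 CPM. The part of muscle RNA in the miR-486 values was not tested.

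miR-214-5p, from a hairpin known for its expression in stromal and muscle precursor cells, was higher in FL than in HGC. It measured 12.1, 17.1, 16.2, 11.8, 18.7 and 15.8 CPM in FL mice 5, 8, 12, 13, 16 and 17. In HGC it measured 9.28, 5.17, 8.48, 3.91, 4.27 and 2.25 CPM, and in VGC 4.88 to 19.0 CPM (median 8.37). FL and HGC did not overlap, as was so with FL above HGC for 2 of 648 miRNAs (0.309%). The highest VGC value was that of the library labelled VGC mouse 17, which goes against its label, and the next was 17.2 CPM, still within the FL range.

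The log2 fold change of miR-214-5p was 1.45 ± 0.39 vs. HGC (edgeR adjusted p = 0.184), DESeq2 gave an adjusted p of 0.0314, and among the libraries with r of at least 0.8 it rose by 1.59 ± 0.35 (edgeR adjusted p = 0.0383). It was 1.39 ± 0.35 without the listed pools and did not pass (edgeR adjusted p = 0.165). Vs. VGC it was 0.62 ± 0.34 with all libraries and 0.65 ± 0.29 among those with r of at least 0.8 (edgeR adjusted p = 0.649 and 0.282). miR-214-3p, the other arm of the same hairpin, gave 0.27 ± 0.40 vs. HGC and -0.24 ± 0.37 vs. VGC.

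miR-877-5p, a miRNA made by splicing of a short intron, was lower in FL. It measured 6.50, 10.1, 5.50, 7.28, 9.87 and 9.75 CPM in FL, against 9.28, 13.5, 17.7, 35.0, 27.1 and 24.8 CPM in HGC and 8.10 to 63.3 CPM in VGC (median 17.0). HGC mouse 5 and VGC mouse 20 fell among the FL values. The log2 fold change was -1.38 ± 0.44 vs. HGC and -1.56 ± 0.42 vs. VGC (edgeR adjusted p = 0.184 and 0.486), and among the libraries with r of at least 0.8 it fell vs. HGC by 1.47 (SE 0.30, edgeR adjusted p = 0.0254) and was -0.79 ± 0.27 vs. VGC (edgeR adjusted p = 0.197). It was -1.28 ± 0.38 and -1.09 ± 0.37 without the listed pools and passed in neither comparison (edgeR adjusted p = 0.199 and 0.301).

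miR-331-5p was 1.25 to 2.26 CPM in FL (median 2.03), 2.25 to 5.78 CPM in HGC (median 3.28) and 2.45 to 5.07 CPM in VGC (median 3.38). FL lay below all VGC libraries and overlapped HGC only at 2.25 to 2.26 CPM. The log2 fold change was -0.93 ± 0.30 vs. HGC and -0.92 ± 0.28 vs. VGC (edgeR adjusted p = 0.184 and 0.486), and it passed in none of the 3 sets of libraries. miR-129-1-3p was 3.27 to 4.93 CPM in FL and 3.19 to 32.6 CPM in VGC, and passed vs. VGC without the listed pools alone (-1.75 ± 0.41, edgeR adjusted p = 0.0472). Its highest value was that of VGC mouse 16 (profile r = 0.58), which that set keeps.

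The large fold changes of 2 other miRNAs shrank when control libraries with r below 0.8 were left out. miR-378a-3p, abundant in brown fat and muscle, was 11350 to 20190 CPM in FL (median 12060), and in HGC it had a median of 13610 CPM and reached 1049000 CPM in the library labelled HGC mouse 16. This exceeds the nominal total because levels are scaled by trimmed means. Its log2 fold change vs. HGC was -3.79 ± 1.00 with all libraries and 0.12 ± 0.26 among those with r of at least 0.8. miR-193a-3p, which DESeq2 called lower vs. HGC with an adjusted p of 0.0440, reached 16750 CPM in HGC against 392 to 1020 CPM in FL. Its edgeR log2 fold change went from -2.55 ± 0.78 to 0.14 ± 0.30 among the libraries with r of at least 0.8.

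Lymphocyte and pan-leukocyte miRNAs did not pass the test in either comparison. miR-150-5p was 37090 to 53100 CPM in FL (median 40500), 13110 to 53830 CPM in HGC (median 38790) and 5689 to 148100 CPM in VGC (median 39980), and the FL range lay inside both others. The fold change was 0.26 ± 0.49 (log2) vs. HGC and -0.29 ± 0.45 vs. VGC. Of 13 members 10 lay above 0 vs. HGC and 4 vs. VGC, with list medians of 0.11 and -0.21, and of -0.16 and 0.05 among the libraries with r of at least 0.8. miR-155-5p, which is induced when lymphocytes are activated, was 1835 to 3384 CPM in FL, with log2 fold changes of 0.02 ± 0.51 and -0.25 ± 0.47. miR-142a-3p, made in all blood cell lineages, was 10890 to 20710 CPM in FL, with 0.19 ± 0.62 and 0.21 ± 0.57.

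The summed level of the lymphocyte list ranged from 170500 to 207200 CPM in FL (median 192400), from 98490 to 190200 CPM in HGC (median 175100) and from 153400 to 323400 CPM in VGC (median 180500). The arms overlapped, with the library labelled HGC mouse 16 lowest and VGC mouse 13 highest. In VGC mouse 13 the lymphocyte sum was thus the highest of all 21 libraries and the erythroid sum, 24710 CPM, the lowest.

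Myeloid miRNAs also stayed short of the threshold. miR-223-3p was 5006 to 8502 CPM in FL (median 6138), 663 to 5881 CPM in HGC (median 5094) and 997 to 9994 CPM in VGC (median 6345). The fold change was 0.66 ± 0.51 (log2) vs. HGC and 0.26 ± 0.46 vs. VGC. Over 8 tested members the median was 0.08 and -0.12, and 0.14 and -0.08 among the libraries with r of at least 0.8. miR-21a-5p, which rises in activated myeloid cells and in many injured tissues, was 6915 to 22000 CPM in FL, 1313 to 16630 CPM in HGC and 3242 to 23890 CPM in VGC, with 0.69 ± 0.49 and 0.63 ± 0.44 (edgeR adjusted p = 0.714 and 0.709).

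The let-7 family, which rises as cells differentiate, had list medians below 0. let-7a-5p was 27660 to 62920 CPM in FL (median 43730), 32190 to 67690 CPM in HGC (median 64310) and 30790 to 99690 CPM in VGC (median 74210), with log2 fold changes of -0.39 ± 0.29 and -0.63 ± 0.27 (edgeR adjusted p = 0.727 and 0.569). Of 9 members 9 were below 0 vs. HGC and 8 vs. VGC, with medians of -0.39 and -0.63, beside medians over all miRNAs of -0.16 and -0.13 with 39.4% and 36.9% of them above 0, and 0 passed edgeR. In each comparison 9 of 9 lay below 0 with r of at least 0.8, with a median of -0.30 in both. These members can share reads, since they differ by few bases, as the sequences of let-7a-5p and let-7c-5p show.

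The miR-17-92 cluster and its paralogs, which are expressed in dividing blood progenitors, had medians of 0.15 vs. HGC and 0.055 vs. VGC over 13 members with all libraries, which turned to -0.078 and -0.15 among the libraries with r of at least 0.8, where 7 and 10 of 13 lay below 0. The list of stress and activation miRNAs had medians of -0.13 and -0.34 over 9 of 10 members, among them miR-34a-5p, a target of p53, with -0.16 ± 0.36 and -0.34 ± 0.34, and miR-210-3p, induced by low oxygen, with -0.53 ± 0.30 and -0.30 ± 0.28. In the list of vessel and stroma miRNAs the median was -0.19 vs. HGC and -0.07 vs. VGC with all libraries, and 12 and 11 of 13 members lay above 0, with medians of 0.28 and 0.40, among the libraries with r of at least 0.8. In none of these lists did a member pass edgeR.

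**Figure D4:**
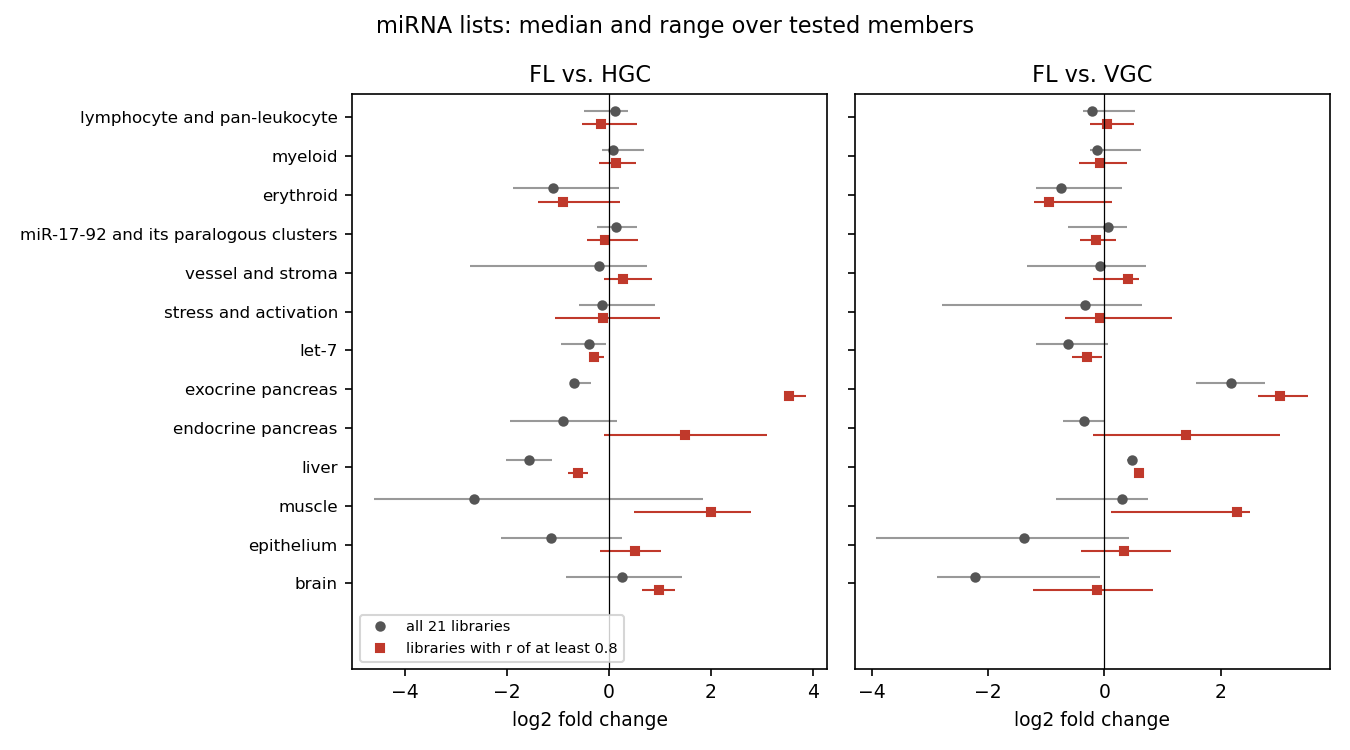
Median log2 fold change (horizontal axes) of the tested members of 13 miRNA lists vs. HGC (left) and vs. VGC (right); grey circles stand for all 21 libraries, red squares for those with a profile r of at least 0.8, and lines run from the lowest to the highest member. The erythroid medians lie at -1.10 and -0.74 (circles) and at -0.90 and -0.96 (squares), while the exocrine pancreas median vs. HGC moves from -0.69 to 3.54.

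miRNAs of neighbouring and other organs varied widely between libraries of the same arm. Among the libraries with r of at least 0.8, the medians of the exocrine pancreas list were 3.54 vs. HGC and 3.02 vs. VGC. Those of the muscle list were 2.00 and 2.28 there, and no member of either list passed edgeR. miR-216a-5p, made in the acinar cells of the pancreas, which lies next to the spleen, measured 2.47, 67.3, 79.5, 81.3, 1.44 and 9.14 CPM in FL mice 5, 8, 12, 13, 16 and 17. In HGC it measured 372 CPM in mouse 5 and 1.80 to 8.27 CPM in the others. In VGC it measured 92.2 CPM in mouse 13, 12.9 CPM in mouse 12 and 0.195 to 4.80 CPM in the others. The signal was thus high in FL mice 8, 12 and 13 and low in the other 3, of which mouse 17 had 9.14 CPM. The median of miR-216a-5p in 13 tissues was highest in pancreas, at 13440 CPM.

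For miR-216a-5p the log2 fold change was -0.69 ± 1.41 vs. HGC and 1.58 ± 1.28 vs. VGC, and 3.54 ± 0.99 and 3.02 ± 0.81 among the libraries with r of at least 0.8 (edgeR adjusted p = 0.105 in both). miR-217-5p, from the same pancreatic cluster, followed the same libraries, with 77.4, 93.5 and 53.8 CPM in FL mice 8, 12 and 13 and 380 CPM in HGC mouse 5. Of 7 exocrine pancreas miRNAs 3 were abundant enough to be tested, and their sum ranged from 2.67 to 207 CPM in FL, from 4.65 to 849 CPM in HGC and from 1.97 to 136 CPM in VGC. The FL libraries low in this signal, of mice 5, 16 and 17, had 29.2, 31.4 and 34.1 CPM of miR-486a-3p, against 26.2 to 33.2 CPM in mice 8, 12 and 13.

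Liver miR-122 reached a summed 5418 CPM in HGC mouse 5 and at most 769 CPM elsewhere. The brain list summed to 7534 CPM in VGC mouse 16 and to at most 721 CPM elsewhere. The epithelial list summed to 20300 CPM in HGC mouse 5 and 26080 CPM in the library labelled VGC mouse 17, and to at most 2680 CPM elsewhere. Each of these libraries had a profile r below 0.8. The part of these signals in the comparisons of other miRNAs was not tested beyond leaving out the libraries.

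**Figure D5:**
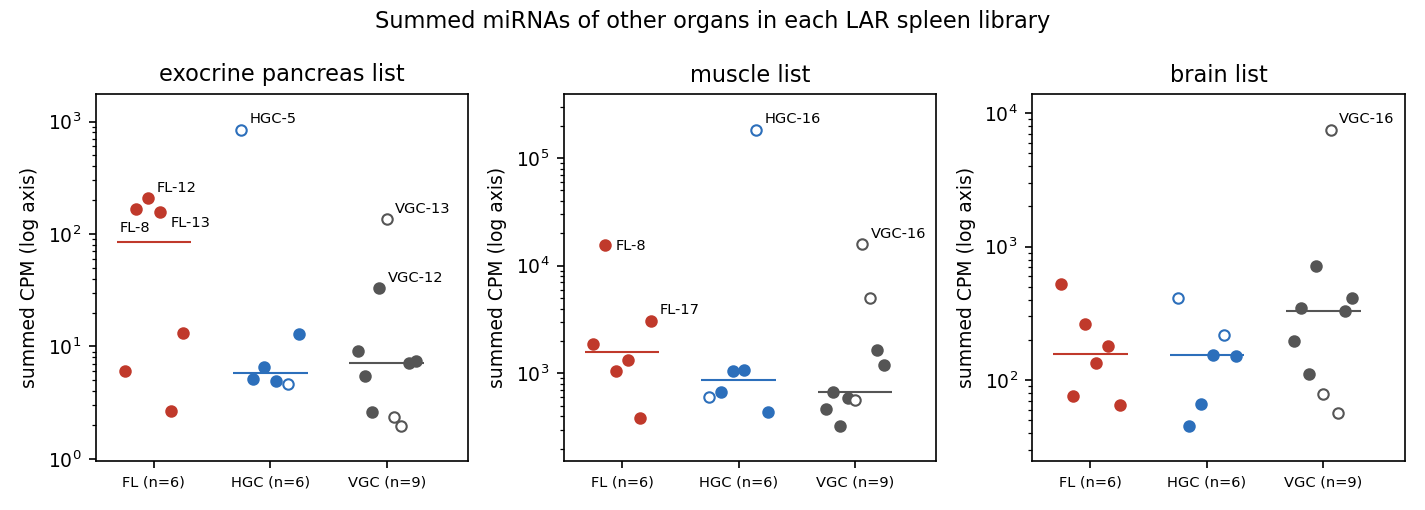
Summed CPM (vertical axes, log scale) of the exocrine pancreas, muscle and brain miRNA lists in FL, HGC and VGC; each circle is a library, open circles have a profile r below 0.8, and horizontal lines are medians. Pancreatic miRNAs reach 155 to 207 CPM in FL mice 8, 12 and 13 and 849 CPM in HGC mouse 5, muscle miRNAs 184200 CPM in the library labelled HGC mouse 16, and brain miRNAs 7534 CPM in VGC mouse 16.

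The study's own criterion for deregulation has no p-value: it asks for geometric medians more than 1 apart on the log2 scale and for Cohen's d beyond 0.5. By this rule 4 of 648 miRNAs (0.617%) were deregulated in FL vs. HGC and 9 (1.39%) in FL vs. VGC. The 4 were miR-193a-3p and miR-205-5p, lower, and miR-199a-5p and miR-21a-5p, higher. miR-21a-5p was the one shared by both comparisons, which share the FL libraries, with log2 ratios of 1.11 and 1.24. Of the 9 in FL vs. VGC, miR-216a-5p and miR-217-5p are the pancreatic miRNAs described above.

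Transfer RNA (tRNA) counts were tested per tRNA gene. Of 208 tRNAs tested with all libraries, 0 (0%) passed edgeR in FL vs. HGC and 0 (0%) in FL vs. VGC, with 11 (5.29%) and 27 (13%) at an unadjusted p of 0.05 and 0 and 0 by DESeq2. All 21 tested tRNA-Cys genes lay below 0 in both comparisons, with medians of -0.76 and -0.81 beside -0.09 and -0.11 over all tRNAs. These genes are near copies of each other and share reads. Among the libraries with r of at least 0.8, 2 of 203 tRNAs passed in FL vs. HGC (0.985%), both lower and both tRNA-Cys, with 54 (26.6%) at an unadjusted p of 0.05, whereas 14 of 19 tRNA-Cys lay above 0 in FL vs. VGC.

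tRNA-Cys-GCA-11-1 was 8.74 to 24.5 CPM in FL (median 16.8), 21.3 to 66.4 CPM in HGC (median 37.4) and 12.4 to 89.3 CPM in VGC (median 27.9), so FL lay at the low end with overlap. Its log2 fold change vs. HGC was -1.27 ± 0.44 with all libraries (edgeR adjusted p = 0.677) and -1.47 ± 0.33 among those with r of at least 0.8 (edgeR adjusted p = 0.0218). tRNA-Cys-GCA-25-1 gave -1.54 ± 0.35 in the latter set (edgeR adjusted p = 0.0218), and vs. VGC the 2 genes gave -0.27 and 0.07 there. All 4 tested tRNA-Asn lay above 0, with medians of 0.56 vs. HGC and 0.52 vs. VGC and none past the test, while 18 of 19 tRNA-Ala lay below 0 vs. HGC and 19 of 19 vs. VGC, with medians of -0.49 and -0.54.

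Among 133 ribosomal RNA (rRNA) features 1 passed edgeR in FL vs. HGC (0.752%), Gm24647, a predicted gene annotated as rRNA. It measured 0.694, 0.961, 0.868, 2.04, 0 and 0 CPM of rRNA counts in FL and 1.11, 0, 23.1, 34.6, 26.6 and 10.9 CPM in HGC. 4 HGC libraries were high, among them the library labelled HGC mouse 16, and 2 were in the FL range, and VGC spanned 0 to 21.1 CPM. The FL values rest on few reads each. Gm24647 fell by 4.33 on the log2 scale (SE 1.01, edgeR adjusted p = 0.0372), and it did not pass among the libraries with r of at least 0.8 (edgeR adjusted p = 0.0656) or without the listed pools (edgeR adjusted p = 0.189). In FL vs. VGC 0 of 133 passed (0%), with 19 (14.3%) at an unadjusted p of 0.05, and DESeq2 called n-R5s197 and n-R5s5, both higher in FL. n-R5s197, a 5S gene copy, was 21.1 to 35.6 CPM in FL and 8.52 to 28.5 CPM in VGC (0.91 ± 0.23, edgeR adjusted p = 0.0790). At an unadjusted p of 0.05, 8 (6.02%) passed in FL vs. HGC.

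Of 641 small nuclear RNAs (snRNAs) 0 (0%) passed edgeR in each comparison, with 38 (5.93%) vs. HGC and 27 (4.21%) vs. VGC at an unadjusted p of 0.05 and 0 and 0 by DESeq2. Rnu11, the U11 RNA of the minor spliceosome, was 1890 to 2841 CPM of snRNA counts in FL (median 2441), 1170 to 2308 CPM in HGC (median 1762) and 1224 to 2325 CPM in VGC (median 1653). Its FL values were at the upper end with overlap, with log2 fold changes of 0.47 ± 0.19 and 0.57 ± 0.17 (edgeR adjusted p = 0.631 and 0.480). Gm24491 was 4.20 to 5.90 CPM in FL and 2.10 to 4.01 CPM in HGC, which did not overlap, and gave 0.92 ± 0.26 (edgeR adjusted p = 0.631), but 0.12 ± 0.23 vs. VGC.

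Of 490 small nucleolar RNAs (snoRNAs) 0 (0%) passed edgeR in each comparison, with 20 (4.08%) vs. HGC and 79 (16.1%) vs. VGC at an unadjusted p of 0.05 and 0 and 0 by DESeq2. Without the listed pools 70 of 480 snoRNAs (14.6%) passed in FL vs. VGC, all of them lower in FL, with 102 (21.2%) at an unadjusted p of 0.05, whereas 0 of 480 passed among the libraries with r of at least 0.8 and 0 of 480 in FL vs. HGC in either set. With every listed feature tested on its own, copies with identical values included, 178 of 645 (27.6%) passed in FL vs. VGC, 176 of them lower, and 0 in FL vs. HGC, with 13 at an unadjusted p of 0.05. Both of these fits included VGC mouse 16, while the libraries with r of at least 0.8 leave it out. Among the 70 called snoRNAs, Gm25314 measured 140 CPM of snoRNA counts in VGC mouse 16 and at most 3.18 CPM elsewhere. Gm22258 measured 75.0 CPM there and at most 8.09 CPM elsewhere. The part of this library in the other calls was not tested. The 80 tested Snord genes, which guide methylation of RNA, had medians of 0.10 and 0.01, and the 41 Snora genes, which guide pseudouridine formation, of -0.05 and 0.11. Gm23547 was 8.11 to 16.3 CPM of snoRNA counts in FL and 9.68 to 29.7 CPM in HGC, with -0.82 ± 0.28 and -0.60 ± 0.26. The 4 tested Snord116 copies, known from neurons, had a median of -4.06 vs. VGC. VGC mouse 16, the library with the brain miRNAs, was the high one, and the median was -0.95 over 3 copies among the libraries with r of at least 0.8.

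piRNAs silence transposons in the germline, and a feature annotated as one also takes reads of other RNAs with the same sequence. Of 452 tested, 0 (0%) passed edgeR in each comparison, with 32 (7.08%) vs. HGC and 37 (8.19%) vs. VGC at an unadjusted p of 0.05 and 1 and 2 by DESeq2. piR-12684 was 0 to 4.28 CPM of piRNA counts in FL and 0 to 51.3 CPM in HGC (-3.69 ± 0.87, edgeR adjusted p = 0.113, DESeq2 adjusted p = 0.0146). piR-14661 was 69.9 to 89.5 CPM in FL, 49.5 to 192 CPM in HGC and 103 to 272 CPM in VGC, so every FL library was below every VGC library (-1.13 ± 0.28, edgeR adjusted p = 0.143, DESeq2 adjusted p = 0.0453).

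Of 2150 lncRNA transcripts 0 (0%) passed edgeR in each comparison, with 160 (7.44%) vs. HGC and 240 (11.2%) vs. VGC at an unadjusted p of 0.05 and 0 and 2 by DESeq2. The 2 were 2810405F17Rik and Rmrp, both higher in FL. 2810405F17Rik was 3.33 to 11.1 CPM of lncRNA counts in FL (median 6.67), 0.948 to 5.94 CPM in HGC (median 2.93) and 1.55 to 3.17 CPM in VGC (median 1.97). Its FL values were above all VGC values, with log2 fold changes of 1.04 ± 0.37 vs. HGC and 1.60 ± 0.34 vs. VGC (edgeR adjusted p = 0.585 and 0.197). Gm31577, the transcript with the smallest p vs. HGC, was 0 to 0.608 CPM in FL and 0.772 to 4.18 CPM in HGC (-2.52 ± 0.57, edgeR adjusted p = 0.407).

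Transcripts of the Snhg genes, hosts of snoRNAs in their introns, lay above 0 for 34 of 39 vs. HGC and 36 of 39 vs. VGC, with medians of 0.26 and 0.44 beside -0.14 and -0.09 over all lncRNAs. None passed edgeR, with 5 and 6 at an unadjusted p of 0.05, beside 160 (7.44%) and 240 (11.2%) of 2150 lncRNA transcripts. The transcripts of one gene overlap, and snoRNA reads fall on their hosts as well, so these values share reads.

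The arms held mice of both ages, so the comparison could be split by age. The difference of FL vs. HGC between mice of 8 and of 3 months passed edgeR for 0 of 648 miRNAs (0%), with 35 (5.4%) at an unadjusted p of 0.05, and groups held 3 FL and 3 HGC libraries at each age. For miR-486a-3p it was -0.84 on the log2 scale and for miR-451a 0.98. Both values include the library labelled HGC mouse 16, of 8 months, which goes against its label. It had 311 CPM of miR-486a-3p, against 87.0 and 45.8 CPM in HGC mice 8 and 12 of the same age. HGC mice 5, 13 and 17, of 3 months, had 44.7, 101 and 89.8 CPM. The -0.84 thus rests in part on that library. Among the libraries with r of at least 0.8, 0 of 620 miRNAs passed edgeR for the difference between ages, with 18 at an unadjusted p of 0.05.

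FL vs. HGC in LAR was set against FL vs. HGC in TERM, where the mice had not returned to Earth alive and had spent fewer days in orbit, so time in orbit, return and preservation cannot be told apart in this comparison. TERM spleens were kept in RNAlater, in all TERM arms alike. Of the 26 TERM libraries 5 had a profile r below 0.8 (2 FL, 1 HGC and 2 VGC), at -0.49 to 0.10. Each of the 5 was closest to another tissue and so goes against its label. These were FL mice 11 (lung) and 12 (subcutaneous fat), HGC mouse 13 (kidney), and VGC mice 4 (liver) and 13 (lung). TERM values with all libraries include them. Of 756 miRNAs 0 (0%) passed for the difference with all libraries, with 72 (9.52%) at an unadjusted p of 0.05 and 3 by DESeq2. miR-486a-3p was 67.2 to 261 CPM in TERM FL (median 105), 39.9 to 264 CPM in TERM HGC (median 85.1) and 38.6 to 253 CPM in TERM VGC (median 97.9), so the TERM arms overlapped. Its log2 fold change in TERM was 0.33 ± 0.36, and the difference of LAR from TERM was -2.04 ± 0.58 (edgeR adjusted p = 0.0595). The difference was -1.50 without the listed pools (edgeR adjusted p = 0.0321) and -1.23 among the libraries with r of at least 0.8 (edgeR adjusted p = 0.238), and over the alternatives that did not leave out a single library (edgeR and DESeq2) its adjusted p ranged from 0.0321 to 0.972. For this difference both of these sets also leave out TERM libraries, FL libraries among them.

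Other classes held called differences between LAR and TERM. Of 665 snRNAs 43 (6.47%) passed, of which 35 (5.26%) were lower in LAR, with a median log2 fold change of -0.84 in LAR and 1.13 in TERM, and 8 (1.2%) were higher, with 0.44 and -0.62. At an unadjusted p of 0.05, 116 (17.4%) passed. The 43 are all Gm-numbered predicted genes, and several had nearly the same values. Gm25525 had -0.84 in LAR and 1.28 in TERM, and Gm22971 had -0.83 and 1.27. Such features may be copies that share reads, so they are not separate evidence. The largest was Gm23865, a predicted gene, with -3.35 ± 0.86 (edgeR adjusted p = 0.0124). Of 218 tRNAs 1 (0.459%) passed, tRNA-Leu-TAA-2-1, with 1.45 ± 0.31 (edgeR adjusted p = 0.00475). It was 519 to 650 CPM of tRNA counts in LAR FL and 314 to 486 CPM in LAR HGC, which did not overlap, and its log2 fold change in TERM was -0.89. Scaled to the total of the 7 classes, its log2 fold change vs. HGC in LAR turned from 0.53 to -0.65, and with every listed feature counted 0 tRNAs passed for the difference. Of 515 snoRNAs 1 (0.194%) passed, the predicted gene Gm22599. No rRNA of 151, piRNA of 537 or lncRNA transcript of 2610 passed edgeR, with 9 (5.96%), 75 (14%) and 433 (16.6%) at an unadjusted p of 0.05 and 0, 3 and 10 by DESeq2. The unadjusted counts were 45 (20.6%) for tRNAs and 35 (6.8%) for snoRNAs. With p-values adjusted over the 7 classes together, 0 snRNAs, 0 tRNAs and 0 snoRNAs passed for this difference. Among the libraries with r of at least 0.8, 225 of 2514 lncRNAs (8.95%), 79 of 661 snRNAs (12%), 21 of 521 piRNAs (4.03%), 16 of 215 tRNAs (7.44%), 1 of 716 miRNAs (0.14%), 0 of 506 snoRNAs and 0 of 149 rRNAs passed edgeR, with 38 snoRNAs and 4 rRNAs at an unadjusted p of 0.05.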

How the data were processed

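Libraries were grouped by their GEO labels, 1 library per animal. As the study's methods state, small RNA libraries were made with the MGIEasy kit in pools, sequenced single-end on a BGISEQ500RS and mapped to GRCm39 with miRMaster. The authors deposited raw counts per feature for 6 classes of RNA and estimated counts for miRNAs, of which 0.790% carry a fraction, and miRNA values were rounded before fitting. Features with identical counts in all spleen libraries were counted once. Features with at least 5 counts in at least 6 of the 21 libraries entered an edgeR 4.0.16 quasi-likelihood fit per class (limma 3.58.1, R 4.3.3) with trimmed-mean (TMM) factors, the 3 arms as groups and Benjamini-Hochberg adjustment within the class, and a feature was called at an adjusted p under 0.05. DESeq2 1.42.0 was the alternative, and an adjusted p it left undefined was not counted. Levels are TMM-scaled counts-per-million (CPM) within the class. Shares were compared by exact permutation tests (scipy 1.17.1, Python 3.11.15), and plots were drawn with matplotlib 3.10.9. The fits were tested on simulated counts.

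Named features are the members of 13 miRNA lists, the features with the smallest p and the highest mean per class, those deregulated by the study's rule in both comparisons, and families by name; features called in 1 subset of libraries, single library values outside these and miR-129-2-3p, miR-193a-3p, Rmrp and Gm22599 were added after their values were seen. Members and lists were chosen with earlier results of these data known. The cutoff of 0.8 on the profile r was chosen after the profiles were seen, whatever the arm. Sequences are from RefSeq (GRCm38.p6), whose coordinates are not given because the counts rest on GRCm39. Intervals for single counts are not given, since reads carried no molecular identifiers. Other alternatives were DESeq2 size factors, no count filter, 5 counts in 10% of the libraries of any arm, 1 scaling over the 7 classes, joint adjustment, every listed feature counted, and plate, mouse number or age as a term.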

Additional observations from a re-analysis of the deposited data

Results flagged for a closer look

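In 81 groups of 4 to 10 libraries, 16 held a library far from the others by Dixon's criterion at 95%, where chance gives about 1 in 20 groups. VGC mouse 13, with a profile r of 0.72 to spleen, stood apart most often: it had 27.7% of its counts on tRNA and was low in 6 erythroid miRNAs, with 9.82 CPM of miR-486a-3p, 10.4 CPM each of miR-486a-5p and miR-486b-5p, 3502 CPM of miR-451a, 30.5 CPM of miR-144-3p and 1.64 CPM of miR-144-5p. The library labelled VGC mouse 17, whose profile had its highest r to lung, had 30.5% of its counts on miRNA and 215700 CPM of miR-26a-5p. The library labelled HGC mouse 16, whose profile had its highest r to brown fat, had 1049000 CPM of miR-378a-3p. HGC mouse 5 had 372 CPM of miR-216a-5p and 380 CPM of miR-217-5p.

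The rest were single values in libraries with a spleen profile. HGC mouse 13 had 22.3% of its counts on lncRNA, VGC mouse 20 had 23890 CPM of miR-21a-5p, FL mouse 8 had 20190 CPM of miR-378a-3p and FL mouse 12 had 34950 CPM of miR-16-5p.

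FL vs. HGC differed between LAR and TERM, by an edgeR test of the difference itself, for 43 snRNAs, 1 tRNA and 1 snoRNA. The snoRNA was Gm22599, a predicted gene, with a log2 fold change of -3.0 in LAR and 2.48 in TERM (edgeR adjusted p of the difference 0.0438). The 2 experiments also differed in time in orbit and in how the spleens were preserved, which cannot be told apart from return.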

How the results depend on the processing

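All values here are counts of features passing the test unless named otherwise, for FL vs. HGC, FL vs. VGC and the difference of FL vs. HGC between LAR and TERM. DESeq2 called 3 and 0 miRNAs and 3 for the difference, 2 rRNAs vs. VGC, 1, 2 and 3 piRNAs, and 2 lncRNAs vs. VGC and 10 for the difference. Without the listed pools the counts were 1, 6 and 7 miRNAs, 15 tRNAs for the difference, 0 rRNAs vs. HGC, 70 snoRNAs (of 480, all lower) vs. VGC and 0 for the difference, 1 piRNA vs. VGC and 41 for the difference, and 13 lncRNAs for the difference. Among the libraries with r of at least 0.8, a set chosen after the data were seen, they were 3, 1 and 1 miRNAs, 2 tRNAs vs. HGC and 16 for the difference, 0 rRNAs vs. HGC, 79 snRNAs and 0 snoRNAs for the difference, 1 piRNA vs. VGC and 21 for the difference, and 225 lncRNAs for the difference. With DESeq2 size factors they were 14 miRNAs, 0 snoRNAs and 1 lncRNA for the difference and 0 rRNAs vs. HGC. With no count filter they were 3 miRNAs, 0 snoRNAs and 14 piRNAs for the difference and 5 piRNAs vs. HGC, and with a filter of 5 counts in 10% of the libraries of any arm 3 miRNAs and 0 snoRNAs for the difference. Scaled to the total of the 7 classes they were 101 tRNAs, 21 snRNAs, 0 snoRNAs, 15 piRNAs and 559 lncRNAs for the difference and 2 rRNAs vs. HGC. Adjusted over all classes together, 0 tRNAs, 0 snRNAs and 0 snoRNAs passed for the difference and 0 rRNAs vs. HGC. With every listed feature counted they were 0 tRNAs, 25 snRNAs and 0 snoRNAs for the difference, 0 rRNAs vs. HGC and 178 snoRNAs vs. VGC. With plate as a term they were 2 rRNAs vs. VGC, 4 piRNAs vs. HGC and 7 for the difference.

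Mouse numbers are shared between arms by different animals, and the deviations of libraries with the same number did not go together in every pair. With the mouse number as a replicate block, 2 rRNAs passed vs. VGC and 0 snRNAs and 0 snoRNAs for the difference, and vs. HGC miR-216a-5p and miR-217-5p turned to 0.75 and 1.38.

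The log2 fold changes that turned their sign, with all libraries as the reference, were these. Without the listed pools, miR-378a-3p vs. HGC was 0.050 and miR-16-5p was -0.040 vs. HGC and -0.045 vs. VGC. Among the libraries with r of at least 0.8, vs. HGC miR-378a-3p was 0.12, piR-1063 0.056, miR-216a-5p 3.54 and miR-217-5p 3.86, miR-150-5p was -0.10 and 0.049, miR-16-5p -0.13 and -0.059, and miR-223-3p vs. VGC -0.16. Scaled to the 7-class total, tRNA-Leu-TAA-2-1 was -0.65, miR-150-5p -0.10 and 0.043, miR-16-5p -0.033 and miR-15a-5p -0.10 vs. HGC. With plate as a term miR-150-5p vs. VGC was 0.34, and vs. HGC miR-216a-5p and miR-217-5p were 0.90 and 0.70; with age as a term these were 1.00 and 0.33.

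The FL minus VGC differences of shares turned, in percentage points, to 0.434 (miRNA), 0.00397 (tRNA), -0.0807 (snRNA) and 0.175 (piRNA) without the listed pools and to 0.929, 0.294, -0.191 and 0.111 among the libraries with r of at least 0.8. With counts as deposited the FL minus HGC share of rRNA was -4.42, and that of lncRNA -1.91, with -1.63 for FL minus VGC. By the study's rule 18 miRNAs passed vs. VGC without the listed pools, 11 and 21 among the libraries with r of at least 0.8, 1 and 2 at 10 rpmm, and 11 and 18 when scaled to miRNA counts alone.

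Leaving out 1 library at a time gave 0 to 1 miRNAs vs. HGC and 0 to 22 for the difference, 1 to 4 tRNAs for the difference, 0 to 2 rRNAs vs. HGC and 0 to 2 vs. VGC, 28 to 55 snRNAs and 0 to 1 snoRNAs for the difference, 0 to 1 piRNAs vs. HGC and 0 to 2 for the difference, and 0 to 2 lncRNAs for the difference. The lncRNA share ranged from -4.0 to -1.96 points (FL minus HGC) and from -3.67 to -2.33 (FL minus VGC), the miRNA share from -2.86 to 0.14, positive without the library labelled VGC mouse 17, and the study's rule from 3 to 13 and from 4 to 18 miRNAs. Of log2 fold changes vs. HGC, miR-378a-3p ranged from -4.04 to 0.028 and miR-16-5p from -0.039 to 0.22, both turning without the library labelled HGC mouse 16, and miR-216a-5p from -1.02 to 3.63 and miR-217-5p from -1.25 to 3.89, both turning without HGC mouse 5. Vs. VGC, miR-150-5p ranged from -0.46 to 0.074 and turned without VGC mouse 13. Of 820 other values of named features, 759 kept their direction and their side of the threshold. Where a result moved, the cause was not tested. The spread between libraries limits the precision of each fold change, and 5 control libraries had a profile r below 0.8, of which 2 were closest to another tissue.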

Other observations

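Transcripts of Rian, a non-coding gene of an imprinted locus that hosts snoRNAs and is known from brain and muscle, turned with the choice of libraries. Of 52 tested transcripts 1 lay above 0 in FL vs. HGC and 14 in FL vs. VGC with all libraries, with median log2 fold changes of -0.93 and -0.04. Among the libraries with a profile r of at least 0.8, 41 of 51 lay above 0 vs. HGC and 50 of 51 vs. VGC, with medians of 0.88 and 0.69, and 19 and 26 passed an unadjusted p of 0.05 while 0 passed the adjusted edgeR test. Over all lncRNA transcripts 287 and 249 of 2004 passed an unadjusted p of 0.05 in that set. The transcripts overlap and share reads, so they are not separate evidence. The muscle miRNA list moved the same way with the same change of libraries, from -2.65 to 2.00 vs. HGC and from 0.31 to 2.28 vs. VGC, with FL mouse 8 at 15450 CPM of muscle miRNAs. The part of muscle RNA in these values was not tested.

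All 6 tested tRNA-Trp genes lay below 0 in both comparisons, with medians of -0.63 vs. HGC and -0.31 vs. VGC with all libraries and of -1.05 and -0.27 among the libraries with a profile r of at least 0.8, and 0 passed the adjusted edgeR test. At an unadjusted p of 0.05, 2 and 0 of the 6 passed with all libraries and 5 and 1 in each of the other sets, without the listed pools and with r of at least 0.8. Over all tRNAs these counts were 11 and 27 of 208 with all libraries, 27 and 40 of 205 without the listed pools and 54 and 24 of 203 with r of at least 0.8.

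piR-1212, a feature annotated as a piRNA and chosen after its values were seen, was 460 to 815 CPM of piRNA counts in FL (median 658) and 126 to 1809 CPM in VGC (median 1423). With all libraries its log2 fold change vs. VGC was -0.77 ± 0.44 (SE), which did not pass (edgeR adjusted p = 0.617). It was -1.14 ± 0.24 (SE) without the listed pools (edgeR adjusted p = 0.0483) and -1.16 ± 0.23 among the libraries with a profile r of at least 0.8 (edgeR adjusted p = 0.0177). In HGC it was 170 to 1099 CPM (median 810), which covered FL, with -0.21 ± 0.47 vs. HGC (edgeR adjusted p = 0.958).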
